A study of Mus musculus with 6 samples.

Results

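CHD7 is an ATPase that remodels nucleosomes and is recruited to promoters and enhancers. Heterozygous loss in humans causes CHARGE syndrome, in which the heart, the outflow tract and other organs with a neural crest contribution are malformed. Gene deserts are long stretches of DNA without protein-coding genes, and those beside developmental regulators are known to hold enhancers that act over long distances. H3K27ac, acetylation of lysine 27 of histone H3, marks active promoters and active enhancers, whereas enhancers that are silent or only primed lack it.

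The 1335 CHD7 regions described here lay more than 100 kb from every annotated end of a protein-coding gene, outside all protein-coding gene bodies, and carried no input peak. They were taken from 19947 CHD7 consensus regions, each the merged extent of overlapping peaks of both CHD7 libraries. The maps came from chromatin immunoprecipitation with sequencing (ChIP-seq) of cardiac neural crest cells at stage E10.5, with 2 CHD7 libraries, 2 H3K27ac libraries and 2 input libraries. Male Wnt1-Cre2 mice had been crossed with females of the mTmG reporter, which switches to green fluorescence after Cre recombination, so that cells descended from Wnt1-expressing precursors, which include the neural crest and the dorsal neural tube, were labelled. The fluorescent cells of pharyngeal arches 3 to 6 were sorted, all libraries shared this genotype and stage, and no mutant or other tissue was compared. The labels do not say whether libraries 1 and 2 came from separate litters or sorts, so their spread may be technical. Depth is unknown, because the files hold called peaks and no reads.

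The labelled cell type was checked at the ends of 10 neural crest genes. H3K27ac stood within 1 kb of an end of 3 of them, Sox9, Twist1 and Ednra, and CHD7 at 2, Sox9 and Ets1. Sox10, Tfap2a, Foxd3, Pax3, Hand2 and Pdgfra had neither mark at an end, while over all protein-coding genes H3K27ac stood at an end of 47.6% and CHD7 at an end of 44.2%. The counts of 3 and 2 of the 10 crest genes lie below these shares. Of the marker genes of other cells of the arches, H3K27ac stood at an end of 0 of 14 for cardiomyocytes, 0 of 12 for endothelium, and 3 of 12 each for blood cells, epithelium and endoderm, neurons and neural tube, and skeletal muscle and mesoderm. CHD7 stood at an end of 0 of 14 cardiomyocyte markers, and, of 12 each, of 3 endothelial, 2 blood cell, 2 epithelium and endoderm, 4 neuron and neural tube and 2 skeletal muscle and mesoderm markers. The part of such cells in the results was not tested.

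The CHD7 fold of the desert regions was close to that of all CHD7 regions, and their q-values were somewhat weaker. Per library, 2552 of 31873 and 1933 of 26927 CHD7 peaks lay in deserts, and 53.6% and 72.0% of these desert peaks recurred in the other library as part of a region, beside 65.1% and 76.6% of all CHD7 peaks. The fold enrichment of each peak is the authors' value, and its median was 3.51 in library 1 and 3.37 in library 2, with ranges of 1.88 to 11.2 and 1.93 to 10.7. Over all CHD7 regions the medians were 3.45 and 3.41. The median −log10 of the q-value was 5.83 and 5.05 in deserts, beside 6.48 and 6.20 over all CHD7 regions. At intergenic CHD7 regions between 1 and 100 kb from a gene end it was 5.87 and 5.44, so part of the weaker q-values was shared by them. The regions were chosen by the CHD7 peak calls of both libraries, so these CHD7 values are a description. In pooled cells, binding in fewer cells and weaker binding in each cell cannot be told apart. Across the desert regions the fold correlated between the libraries with a Spearman rho of 0.52 (n = 1335 regions of the same pair of libraries), beside 0.62 across all 19947 regions. The summits of the libraries lay a median of 82 bp apart within regions of a median width of 725 bp.

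**Figure D1:**
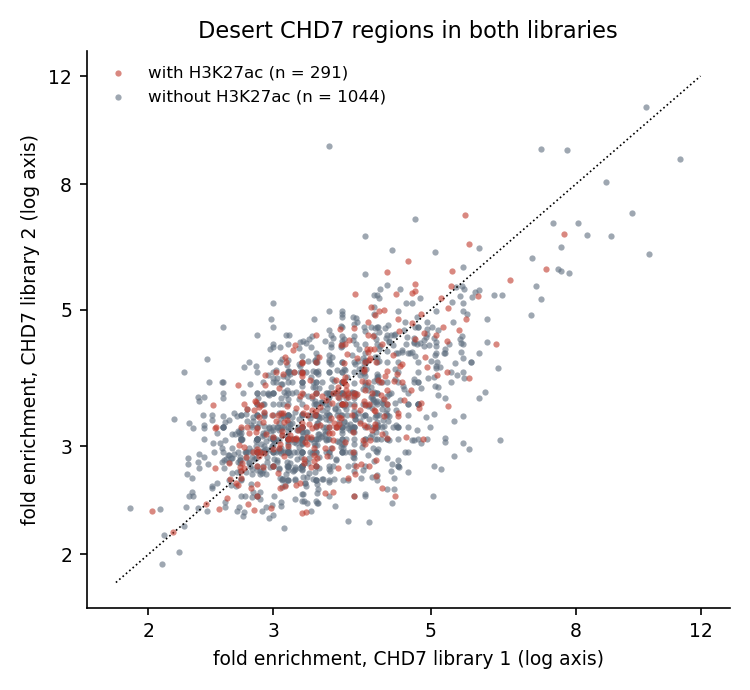
Fold enrichment of each desert CHD7 region in CHD7 library 1 (horizontal, log axis) and CHD7 library 2 (vertical, log axis), as given by the authors' peak caller, with the dotted line at equal fold. Regions with H3K27ac (n = 291) and without it (n = 1044) overlap in fold up to 7.72 in library 1 and 7.12 in library 2, and the regions above these folds are without H3K27ac.

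The median distance from the nearest gene end was 215 kb, 777 regions lay within 250 kb, 157 lay beyond 500 kb and 38 beyond 1 Mb. At the limit itself, the closest regions inside it lay 100.036, 100.064 and 100.101 kb from a gene, and those just outside it 99.797, 99.796 and 99.766 kb. Protein-coding genes set this limit, and non-coding genes are frequent in deserts. Of the 1335 regions, 1179 lay inside or within 100 kb of an annotated non-coding gene or pseudogene, and 156 lay more than 100 kb from every annotated gene.

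The 10 desert regions of highest mean CHD7 fold were all without H3K27ac. The strongest lay at chrX:129056358-129056865 between Cldn34c4, a claudin-like gene, and Diaph2, which encodes a formin of the actin cytoskeleton, and had folds of 10.04 and 10.70 in CHD7 libraries 1 and 2. At chr9:52810028-52810616, between AI593442 and Ddx10, an RNA helicase gene, the folds were 11.2 and 8.80. A region 108 kb from Gata6, a transcription factor of the outflow tract and other mesodermal and endodermal tissues, had 8.84 and 8.07 (chr18:11193365-11193889). At each of these 3 regions both CHD7 libraries had a fold of at least 8.07.

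A region between Chst9 and Cdh2, the gene of N-cadherin, had folds of 9.61 and 7.19 (chr18:16074239-16074774). A region 212 kb from Fgf9, a secreted growth factor gene, had 7.15 and 9.13 (chr14:58324526-58325257). A region 322 kb from Nkx6-1, a homeodomain factor gene of neural and pancreatic progenitors, had 8.97 and 6.60 (chr5:101336549-101337255). Both libraries were high at these sites, although their order differed from site to site. The other 4 lay between Fat3 and Chordc1, Gm52008 and Bcl11b, Adgrl2 and Adgrl4, and Foxo1 and Cog6, with mean folds of 8.43, 8.15, 7.49 and 7.46.

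H3K27ac was less frequent at desert CHD7 regions than at CHD7 regions nearer to genes. It overlapped 291 of the 1335 desert regions, or 21.8% (95% exact binomial interval over regions 19.6 to 24.1%), against 60.4% of all CHD7 regions. Among intergenic CHD7 regions between 1 and 100 kb from a gene end the share was 39.6%, or 1348 of 3406. Regions within 1 kb of a gene end had H3K27ac in 80.4% and regions inside gene bodies in 44.3%. Taken library by library, 14.8% of the desert peaks of CHD7 library 1 and 17.3% of those of library 2 overlapped an H3K27ac region, against 27.9% and 32.2% of their peaks between 1 and 100 kb from a gene. The desert mean was 16.0% ± 1.74 and the nearer mean 30.1% ± 3.04 (SD, n = 2 libraries each), a difference of -14.0 percentage points. The values did not overlap, and the two-sided exact permutation test over libraries gave p = 0.3333, the smallest that 2 against 2 allows. Each CHD7 library gave both a desert and a nearer share, and this test left that pairing out. Paired by library, an exact sign-flip test gave p = 0.5, the smallest that 2 pairs allow. Here and throughout, intervals cover counting of regions only, and regions are not replicates.

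The share went down with distance inside the deserts as well. It was 28.2% of 603 regions at 100 to 200 kb, 19.7% of 461 at 200 to 400 kb, 13.1% of 213 at 400 to 800 kb and 3.45% of 58 beyond 800 kb, where 2 regions carried the mark. Between 1 and 100 kb it was 38.4, 44.2, 40.7 and 34.9% in the bins ended at 10, 25, 50 and 100 kb. Each H3K27ac library on its own gave the same order within the deserts, with 36.5, 27.5, 19.7 and 8.62% for library 1 and 36.7, 28.0, 19.7 and 5.17% for library 2. The CHD7 fold did not follow this order, with desert medians of 3.45, 3.61, 3.51 and 3.56 in library 1 and 3.31, 3.37, 3.43 and 3.37 in library 2. Of the 38 regions beyond 1 Mb, 1 carried H3K27ac, in the desert between Bcl11a and Fancl.

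**Figure D2:**
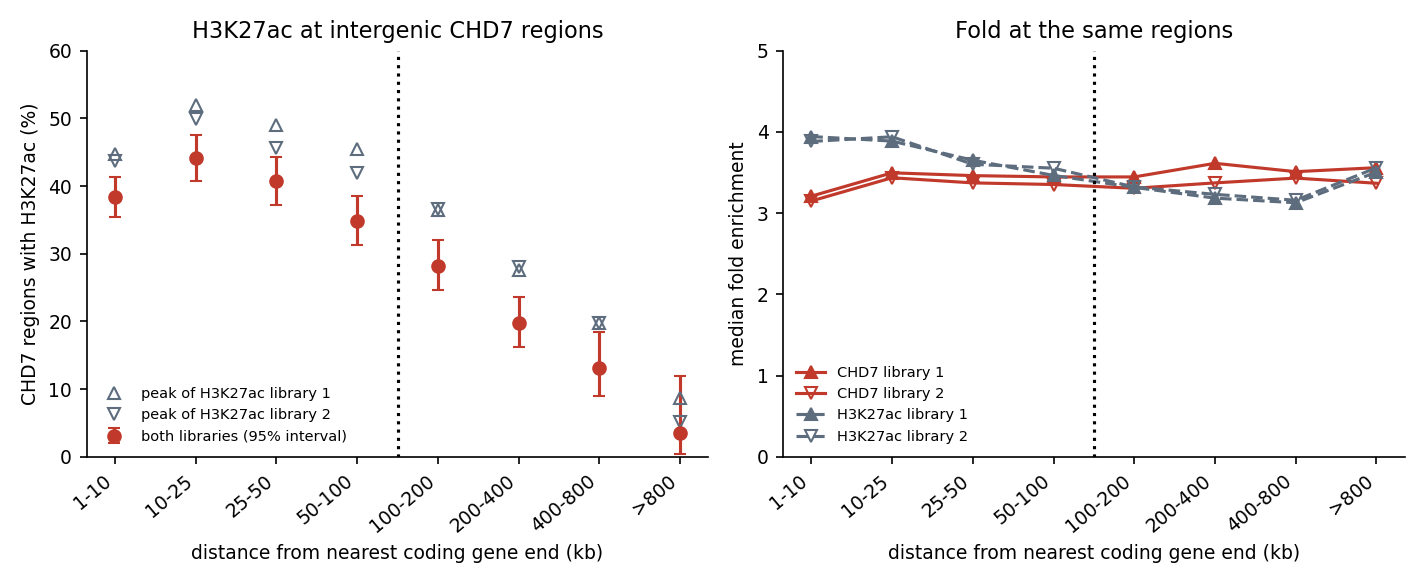
Left, the percentage of intergenic CHD7 regions with H3K27ac by distance from the nearest protein-coding gene end, as regions found in both H3K27ac libraries with 95% exact binomial intervals and as peaks of either single H3K27ac library. Right, the median fold of CHD7 and, at regions that carry it, of H3K27ac in each library; the dotted line is the 100 kb limit, to the right of which the share was 28.2% and then lower in every bin, while the CHD7 medians stayed between 3.31 and 3.61.

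Desert regions with H3K27ac were wider than those without it, with median widths of 873 and 691 bp. Their median CHD7 folds were close, at 3.65 and 3.43 in libraries 1 and 2 with the mark, against 3.47 and 3.34 without it. Over 5 equal groups by mean CHD7 fold (267 regions each, low to high) the acetylated share was 18.4, 20.6, 22.8, 23.2 and 23.97%, with intervals that all overlapped. Of the 50 regions of highest CHD7 fold, 10 carried H3K27ac, and of the highest 100, 24 did. At acetylated desert regions the H3K27ac fold had medians of 3.26 and 3.30 in its libraries, against 3.76 and 3.77 at acetylated CHD7 regions between 1 and 100 kb from a gene. Across these 291 regions the H3K27ac fold correlated with a rho of 0.61 between the H3K27ac libraries and the mean H3K27ac fold with the mean CHD7 fold with a rho of 0.28.

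The requirement of a peak in both H3K27ac libraries decided part of the share. A peak of H3K27ac library 1 overlapped 394 desert regions and a peak of library 2 overlapped 395. Peaks of both libraries overlapped 295 regions. Without a shared H3K27ac region, 193 regions had a peak of a single library, 10 had separate peaks of both and 841 had neither. Regions without the mark were mostly not at the edge of an acetylated domain, since the nearest H3K27ac region was a median of 166 kb away, within 10 kb for 73 of 1044 (6.99%) and beyond 100 kb for 719 (68.9%). Seen from the mark, 506 H3K27ac regions lay in deserts and 293 of them, or 57.9% (95% exact binomial interval 53.5 to 62.2%), overlapped a CHD7 region, against 66.8% of all 17756 H3K27ac regions.

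The desert CHD7 regions of highest H3K27ac fold were spread over deserts of different kinds. On chromosome 10, a region 166 kb from Dcn, the gene of the matrix proteoglycan decorin, had H3K27ac folds of 8.38 and 7.59 and CHD7 folds of 7.72 and 6.64 (chr10:97313132-97313777). A region between Opa1 and the Notch target Hes1, 150 kb from Opa1, had H3K27ac folds of 7.03 and 6.39 (chr16:29813561-29814436). In both places both H3K27ac libraries had a fold of at least 6.39.

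Regions 117 kb from Lhx1, a LIM homeodomain gene, and between Cxcl12, a chemokine gene, and Zfp637 had mean H3K27ac folds of 5.81 and 5.78. Those between Gm4832 and Foxn2, Bcl11a and Fancl, and Gm44812 and Mctp2 had 6.16, 5.89 and 5.85. A further 2 lay on chromosome 12, between the predicted genes Gm46305 and Gm10476 and between Gm38538 and Gm40862, with mean H3K27ac folds of 8.21 and 7.24.

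Part of the acetylated desert regions stood at the starts of long non-coding RNA (lncRNA) genes, which the rule did not use. A non-coding gene or pseudogene had an end within 1 kb of 65 of the 291 regions with H3K27ac, or 22.3% (17.7 to 27.6%), against 83 of the 1044 without it, or 7.95% (6.38 to 9.76%). Among the other intergenic CHD7 regions, between 1 and 100 kb from a protein-coding gene, it was 785 of 3406, or 23.0%. Small RNA genes had an end within 1 kb of 177 of these 3406 regions and of 1 desert region. For lncRNA genes alone, the share was 21.0% (16.4 to 26.1%) with H3K27ac and 7.28% (5.78 to 9.03%) without it. Among the other intergenic regions it was 16.5% (15.3 to 17.8%). Regions in the body of any non-coding gene or pseudogene, away from its ends, made up 16.5% of those with H3K27ac and 17.5% of those without it. RefSeq promoter windows, from 250 bases before to 50 after a gene's start, of 48 lncRNA genes were touched by 47 desert regions, and 22 of these regions carried H3K27ac. That is 7.56% of the regions with H3K27ac against 2.39% of those without it. Among the 48 is Tunar, a lncRNA gene expressed in neural tissue and pluripotent cells, on chromosome 12.

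The promoter windows of 3 lncRNA genes are printed as examples of windows that a desert region overlapped. They are from RefSeq on build GRCm38.p6 (mm10), 5′ to 3′ on the gene's strand, with CG dinucleotides in capitals. 5730522E02Rik (chr11:26210527-26210826, minus strand) lies in the Bcl11a desert under a region with CHD7 folds of 4.16 and 4.32 and H3K27ac folds of 5.68 and 6.10. Mir99ahg (chr16:77329078-77329377, plus strand), host of a microRNA cluster, has CHD7 folds of 3.12 and 2.59 and H3K27ac folds of 3.29 and 3.23. Gm11228 (chr4:71131084-71131383, minus strand) is without H3K27ac and has CHD7 folds of 7.56 and 5.82, with summits at -329 and -303 bases from the start. The summits lay at -236 and -318 bases for 5730522E02Rik and at 102 and 163 for Mir99ahg. Except for that at -236, all these summits lay outside the printed windows. The region covered 263 of the 300 bases printed for 5730522E02Rik and all 300 for Mir99ahg and Gm11228.
5730522E02Rik: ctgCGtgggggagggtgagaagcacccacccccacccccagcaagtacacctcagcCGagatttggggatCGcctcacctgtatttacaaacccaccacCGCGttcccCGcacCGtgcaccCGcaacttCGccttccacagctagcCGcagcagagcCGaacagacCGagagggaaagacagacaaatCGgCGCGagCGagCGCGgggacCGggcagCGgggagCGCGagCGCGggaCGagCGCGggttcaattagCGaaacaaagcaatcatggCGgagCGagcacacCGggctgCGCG
Mir99ahg: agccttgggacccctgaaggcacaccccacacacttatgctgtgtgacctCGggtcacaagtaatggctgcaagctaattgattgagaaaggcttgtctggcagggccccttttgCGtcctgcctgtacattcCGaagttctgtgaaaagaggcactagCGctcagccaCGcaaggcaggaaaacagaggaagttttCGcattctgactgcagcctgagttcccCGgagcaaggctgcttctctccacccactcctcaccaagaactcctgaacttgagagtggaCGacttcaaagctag
Gm11228: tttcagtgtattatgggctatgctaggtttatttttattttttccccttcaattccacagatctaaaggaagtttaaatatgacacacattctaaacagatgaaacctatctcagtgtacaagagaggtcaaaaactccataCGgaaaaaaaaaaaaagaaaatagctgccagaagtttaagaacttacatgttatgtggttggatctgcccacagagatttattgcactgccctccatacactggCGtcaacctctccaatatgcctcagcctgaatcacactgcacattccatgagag

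These windows hold 33, 8 and 2 CG dinucleotides. The median was 6 in the 23 windows under regions with H3K27ac and 7 in the 25 under regions without it, against 4 over 9531 lncRNA genes and 13 over 17491 protein-coding genes. On both strands, 6 short motifs were searched, GCCNNNGGC of the TFAP2 family, ACAAAG and ACAATG of the SOX family, CATCTG of TWIST-like factors, TAATTA of homeodomain factors and AGATAA of GATA factors. In the 48 windows they occurred in 8.33, 27.1, 20.8, 20.8, 4.17 and 8.33%, against 10.8, 22.3, 15.5, 21.6, 6.48 and 14.1% of the windows of all lncRNA genes. A match is a description of letters and not of binding.

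The desert CHD7 regions were unevenly spread over the deserts of the genome. Of 1670 intervals longer than 200 kb between neighbouring protein-coding genes, 530 (31.7%) held at least 1 region, and 3 regions lay beyond the first or last gene of a chromosome. The occupied deserts were longer, with a median length of 653 kb against 349 kb for the unoccupied ones. A single region was found in 250 deserts, 2 to 4 regions in 204, and 5 or more in 76, and these 76 held 553 of the 1335. Per Mb of desert more than 100 kb from a gene, 1.76 regions were found on average, with 2.46, 2.58, 1.54 and 0.833 in deserts of up to 500 kb, 1000 kb, 2000 kb and longer. On the autosomes alone the average was 2.02 per Mb. The nearest other desert region was a median of 73.4 kb away, and 560 regions (41.9%) had another within 50 kb. For 83 regions (6.22%) another lay within 1 kb, so neighbouring regions may be parts of 1 site. Of the 338 neighbouring pairs within 50 kb, 33 carried H3K27ac at both regions, 109 at 1 and 196 at none. In 339 of the 530 occupied deserts no region carried H3K27ac.

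The 10 most occupied deserts are each named by their flanking genes, without implying that either gene is a target. The desert between Zfp608, a zinc finger gene, and Gramd3 on chromosome 18 held 21 regions over 1395 kb. Their folds had a median of 3.05 (2.42 to 5.23) in CHD7 library 1 and 3.15 (2.42 to 4.84) in library 2, and 7 carried H3K27ac. CHD7 library 1 alone had 38 peaks there. Neither flanking gene had H3K27ac at an end. On the other side of Zfp608, the desert that reaches to Csnk1g3 held 12 regions, 3 of them acetylated.

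The desert between Thap1 and Zfp703, the gene of a zinc finger repressor, held 18 regions over 813 kb. Their folds had medians of 3.42 in each library, over 2.17 to 4.75 in library 1 and 2.23 to 4.69 in library 2, and none of the 18 carried H3K27ac, although both flanking genes had the mark at an end. No H3K27ac region found in both libraries and free of an input peak lay in this desert more than 100 kb from a gene.

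Among the deserts with 13 regions, that of Efnb2, the gene of the transmembrane ligand ephrin-B2, extended over 3512 kb, and its regions had median CHD7 folds of 3.30 and 3.38. That of Nr2f1, an orphan nuclear receptor gene active in neural crest, extended over 2685 kb to Arrdc3, with median folds of 3.20 and 3.45. That of Marcks, the gene of an actin-associated protein kinase C substrate, had 3.59 and 3.08. Each of these 3 deserts had 1 region with H3K27ac. The peaks of library 1 alone numbered 22 in the Efnb2 desert and 21 in the Nr2f1 desert, where library 2 alone had 20. The desert of Zeb2, a zinc finger factor gene of migrating neural crest, reached to Acvr2a, an activin receptor gene, and held 10 regions, 1 acetylated, of which 6 lay beyond 1 Mb of either gene. Library 1 alone had 22 peaks in it.

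The desert of Sox11, a SOX factor gene of neural and crest progenitors, held 11 regions, 4 with H3K27ac, and that of Bcl11a, a zinc finger gene of neurons and blood, 11 with 3. Library 1 alone had 19 peaks in the Bcl11a desert. The desert between Dph6, a gene of diphthamide synthesis, and BC052040 held 11 with 2. The 10 most occupied deserts therefore ranged from 0 to 7 acetylated regions, and the number of regions did not fix that of acetylated ones.

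**Figure D3:**
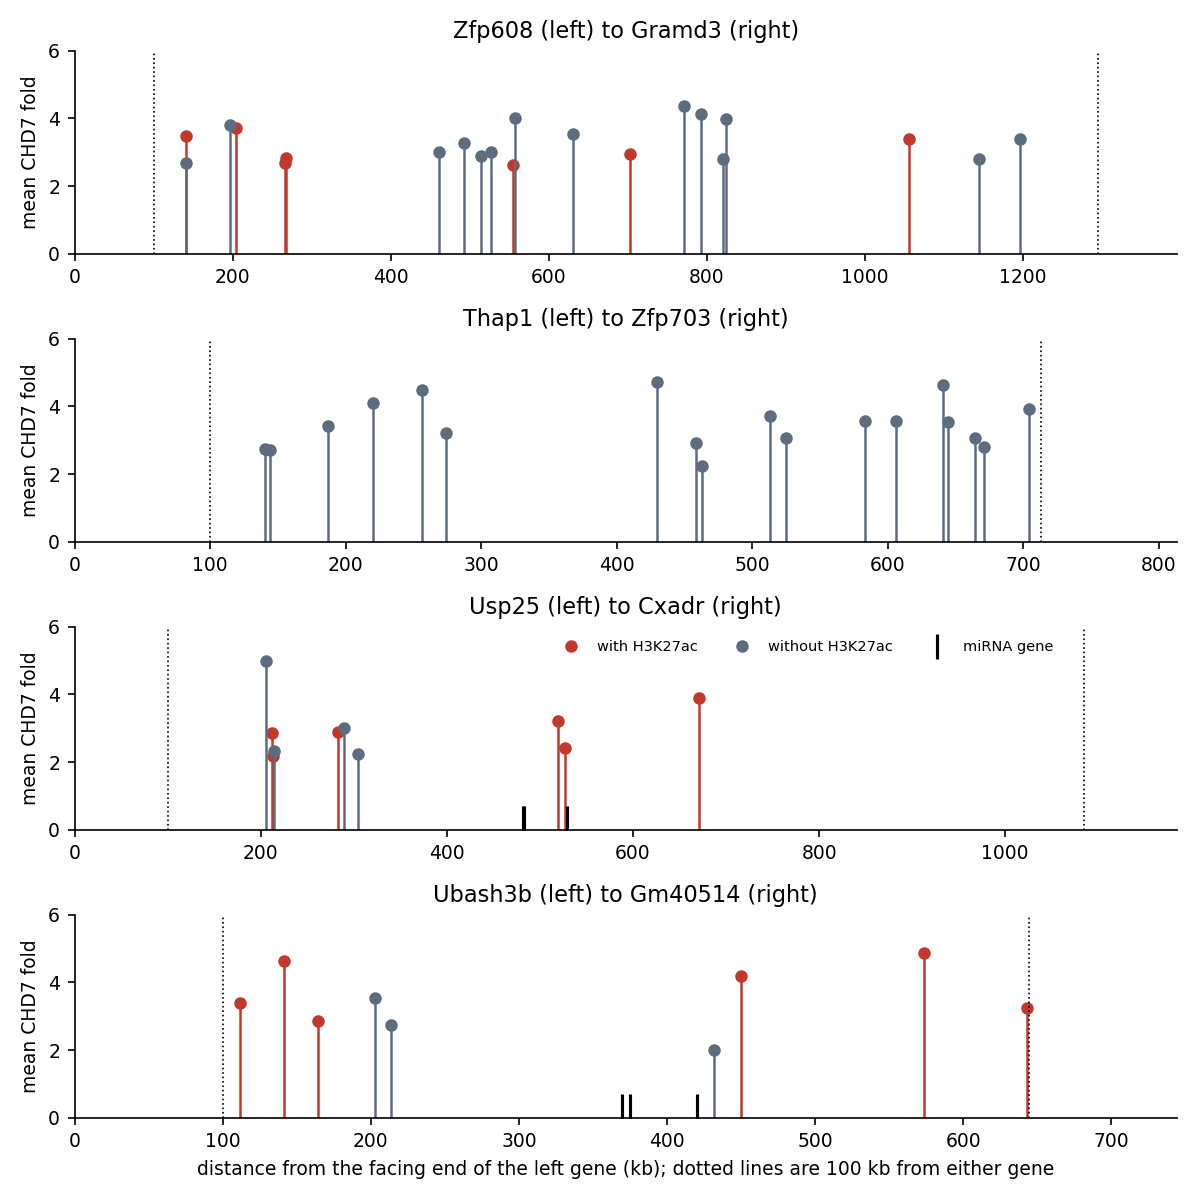
Desert CHD7 regions along 4 deserts, by distance from the facing end of the left gene (horizontal, kb) and mean CHD7 fold of both libraries (vertical), with dotted lines 100 kb from either gene and black ticks at miRNA genes. The 18 regions between Thap1 and Zfp703 are all without H3K27ac, while 6 of 10 between Usp25 and Cxadr and 6 of 9 between Ubash3b and Gm40514 carry it.

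Deserts whose flanking genes carried H3K27ac held more CHD7 regions. With the mark at an end of neither, 1 or both flanking genes, deserts held 0.916, 1.88 and 3.26 desert CHD7 regions per Mb (667, 675 and 328 deserts). The order was the same for the peaks of CHD7 library 1 alone, 1.75, 3.59 and 6.24 per Mb, and of library 2 alone, 1.36, 2.71 and 4.64 per Mb. It held in each of the 4 length classes. On the autosomes alone the values were 1.29, 1.94 and 3.27 per Mb. Seen from the genes, 521 of the 974 genes beside an occupied desert had H3K27ac at an end (53.5%), against 631 of the 1804 beside unoccupied deserts only (34.98%) and 47.6% of all protein-coding genes. CHD7 at an end was found at 49.1% of the genes beside an occupied desert, against 33.6% beside unoccupied deserts only. These shares of genes include the X and Y chromosomes and were not computed for the autosomes alone. Of all 1670 deserts 530 were occupied, and of the 1376 autosomal deserts 520. With neither flanking gene acetylated, 404 of the 667 deserts were autosomal. Pooled over all lengths, the acetylated share of the desert regions themselves did not follow the flanking genes, at 20.5, 22.1 and 21.8% with neither, 1 or both acetylated. By length class its order varied, at 24, 34.2 and 32.3% in deserts of 200 to 500 kb. In deserts of 500 to 1000 kb it was 24.3, 23.9 and 19.4%. H3K27ac regions, counted with or without CHD7, did rise with the flanking genes, at 0.275, 0.723 and 1.35 per Mb of desert. Genes are not replicates, so no test was made across them.

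**Figure D4:**
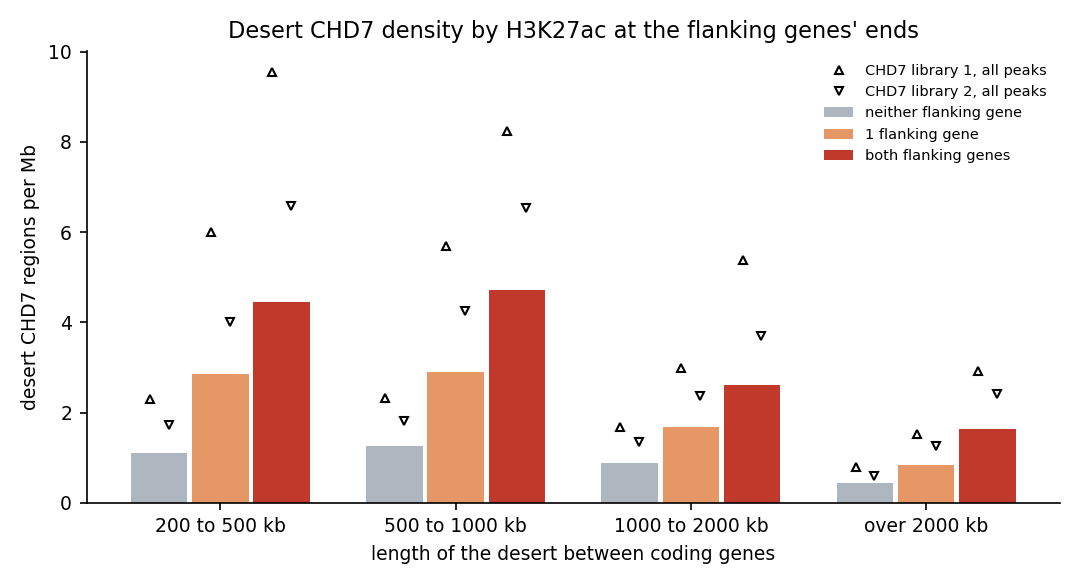
Desert CHD7 regions per Mb (vertical) by desert length (horizontal) and by the number of flanking genes with H3K27ac within 1 kb of an end. Bars are regions found in both CHD7 libraries and triangles all desert peaks of each library alone, and within every length class both are lowest with neither flanking gene acetylated and highest with both.

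Gene lists by role showed which developmental genes stood beside occupied deserts, with 35.1% of all 2778 desert-flanking genes as the background. This background includes the X and Y chromosomes and was not matched for desert length. Of all deserts 31.7% were occupied, against 48.2% of those of 500 to 1000 kb and 51.9% of those of 1000 to 2000 kb. The median desert length was 417 kb over all deserts and 408 kb for secreted signals. It was 620 kb for crest factors, 538 kb for heart and arch factors and 758 kb for axon guidance genes. The part of length in these shares was not tested. Of 40 neural crest transcription factors, 29 flanked a desert and 21 an occupied one. Their deserts held 3.93 desert CHD7 regions per Mb, against 1.76 over all deserts and 2.02 over autosomal deserts. Among these factors, Nr2f1 had 13, Zeb2 had 10 and the growth regulator gene Myc had 7 regions in a single desert. Of 88 transcription factors of the heart, outflow tract and arches, 57 flanked a desert and 42 an occupied one, with 3.77 regions per Mb. Pou3f2 had 9, Nkx6-1 and Pou3f3 had 8 each, and Sall1 had 7 regions in a single desert. These leading members are known chiefly from other organs, Pou3f2 and Pou3f3 from neural progenitors, Nkx6-1 from neural and pancreatic progenitors and Sall1 from the kidney and limbs.

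Of 32 genes of secreted signals and antagonists beside a desert, 18 flanked an occupied one, with 3.12 regions per Mb. Among them were Cxcl12 with 5 regions, Fgf9 and the Notch ligand Jag1 with 4 each, and the bone morphogenetic protein gene Bmp4 with 3. Of 36 regions in the deserts of this list, 2 (5.56%) carried H3K27ac, against 21.8% of all desert regions. The share was also below that of all desert regions for crest factors (14 of 97), heart and arch factors (23 of 122), receptors (3 of 26), axon guidance (9 of 104) and cell adhesion genes (11 of 76), and above it for chromatin regulators (5 of 11). Of 14 receptors beside a desert, 9 flanked an occupied one, with 3.03 regions per Mb, among them Acvr2a with 10 and Ednra, the endothelin receptor gene of arch mesenchyme, with 4.

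Axon guidance genes had 22 of 39 beside an occupied desert and 2.24 regions per Mb, led by Efnb2 with 13 and by Slitrk5, Slit2 and Epha4 with 8 each. Cell adhesion genes had 36 of 55 but 0.713 regions per Mb, below the average of all deserts, and their deserts had a median length of 1006 kb. Chromatin regulators had 4 of 5, Chd9, Arid1b, Chd7 and Chd6. The desert between Chd7 itself and Clvs1 held 3 desert CHD7 regions, 1 of them with H3K27ac. For these 3 lists both CHD7 libraries alone lay on the same side of their own average over all deserts, 3.36 peaks per Mb in library 1 and 2.54 in library 2.

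The marker lists of other cell types had few genes beside deserts. An occupied desert was flanked by 1 of 1 cardiomyocyte marker, 1 of 4 endothelial markers, 3 of 3 blood cell markers, 3 of 5 epithelium and endoderm markers, 1 of 3 neuron and neural tube markers and 1 of 1 skeletal muscle and mesoderm marker. Their deserts, 1, 4, 3, 8, 3 and 1 in number, held 1, 3, 10, 14, 2 and 2 desert CHD7 regions. Per Mb these were 1.01, 2.04, 5.90, 2.75, 2.55 and 4.28, against 1.76 over all deserts and 2.02 over autosomal deserts. The density beside blood cell markers, where 4 of the 10 regions carried H3K27ac, was thus above that of every developmental list, and it rests on 3 deserts. Among them Ptprc, the pan-leukocyte gene CD45, flanked a desert with 6 regions and Sox2, a neural and endodermal factor gene, one with 6. The part of such cells in the densities was not tested.

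**Figure D5:**
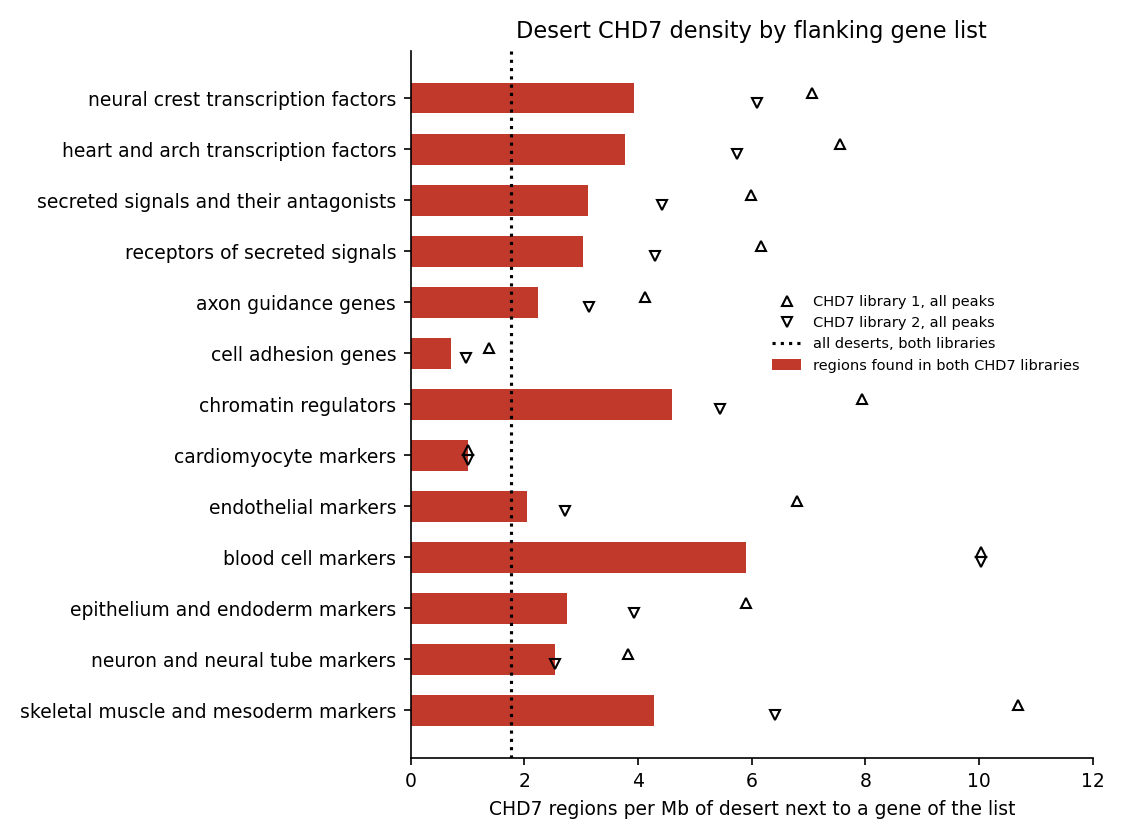
Desert CHD7 regions per Mb of desert (horizontal) next to the genes of 13 lists, of which the last 6 mark other cell types and rest on 1 to 8 deserts each. Bars are regions found in both CHD7 libraries, triangles all desert peaks of each library alone, and the dotted line the average of 1.76 regions per Mb over all deserts. The bars of cell adhesion genes and cardiomyocyte markers lie below this line and those of the other 11 lists above it. Autosomal deserts alone averaged 2.02 per Mb, which is close to the 2.04 of endothelial markers.

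A pair of deserts that hold related microRNA clusters carried H3K27ac at most of their CHD7 regions and were singled out after their values had been seen. MicroRNAs recognise their targets mainly by the seed, bases 2 to 8, printed in capitals in the mature sequences, which are from RefSeq and run 5′ to 3′. The Usp25 to Cxadr desert on chromosome 16 holds Mir99a, Mirlet7c-1 and Mir125b-2, and the Ubash3b to Gm40514 desert on chromosome 9 holds Mir100, Mirlet7a-2 and Mir125b-1. The sequences are shown because the clusters share seeds, with ACCCGUA in miR-99a and miR-100 and the whole of miR-125b-5p in both.
miR-99a-5p: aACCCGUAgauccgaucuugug
miR-100-5p: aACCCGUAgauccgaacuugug
let-7c-5p: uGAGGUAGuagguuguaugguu
miR-125b-5p: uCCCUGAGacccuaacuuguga

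Between Usp25 and Cxadr, 6 of 10 desert CHD7 regions carried H3K27ac, and between Ubash3b and Gm40514, 6 of 9, against 21.8% of all desert regions. The first desert held 5 H3K27ac regions without an input peak, and neighbouring CHD7 regions can overlap the same one. In the first desert, the region at the start of Mir99ahg had CHD7 folds of 3.12 and 2.59. A second, chr16:77644164-77644979, lay 1.29 kb from Mir125b-2 and had CHD7 folds of 2.41 and 2.41 in libraries 1 and 2, and it carried H3K27ac. Mir99a and Mirlet7c-1 were 37.2 and 36.4 kb from the nearest region.

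In the desert of Mir100, the CHD7 folds reached 5.27 and 4.92 in the libraries. The region that overlapped the start of its host, Mir100hg, at chr9:41375493-41376431, had CHD7 folds of 2.61 and 2.87 and was without H3K27ac. The nearest region to Mir125b-1 was 11.2 kb away. Regions with H3K27ac lay on either side of the miRNA genes in both deserts, as the map of 4 deserts shows. In the Usp25 to Cxadr desert, acetylated regions at chr16:77636193-77636929 and chr16:77644164-77644979 lay between Mirlet7c-1 and Mir125b-2.

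Over all deserts, 200 miRNA genes were annotated, 115 of them in 50 occupied deserts, and 15 within 10 kb of a desert CHD7 region. No miRNA gene came within 1 kb of one. Of the 15, 7 belonged to the Rtl1 to Dio3 interval on chromosome 12, an imprinted domain with a large miRNA cluster, where a region without H3K27ac at chr12:109749568-109749980 had folds of 2.35 and 2.38 and lay 1.61 kb from Mir3072. Mir124a-2, a gene of the neuronal miR-124, was 5.09 kb from a region without H3K27ac with folds of 2.31 and 2.49. The occupied deserts with a miRNA gene held 194 regions in all, and 55 of these (28.4%) carried H3K27ac, against 21.8% of all desert regions. These counts include the pair of deserts singled out above for their acetylation, with 6 of 10 and 6 of 9, which raise the share.

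By chromosome, the autosomes held between 1.11 (chromosome 15) and 3.70 (chromosome 13) desert CHD7 regions per Mb of desert, and the X chromosome held 10 regions, or 0.180 per Mb. The X regions included the one of highest mean fold. The Y chromosome held 1 region. Sequence that reads could not be assigned to uniquely was not measured here, and its part in these densities was not tested.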

How the data were processed

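Peak lists of 2 CHD7, 2 H3K27ac and 2 input libraries were analysed. Per the submitters' processing notes, the tools were MACS2 2.1.2, Bowtie2 2.3.3.1, Picard and bcl2fastq 2.18.0.12, and the build was mm10. Each deposited list was called by the authors on a single library and gives the fold enrichment of each peak as a ratio, the −log10 of its p-value and q-value, and an integer score. The control of the peak calls and their threshold are not given in the sources used here. Fold and q-value were used only to describe, rank or filter peaks of a list.

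Summits listed for the same interval were treated as 1 peak, which took their maximum fold and q-value, and chromosomes 1 to 19, X and Y were kept. Overlap meant at least 1 bp. A consensus region is the merged extent of overlapping peaks with a peak in both libraries of a group. Distances are to either end of 21772 protein-coding genes of RefSeq (GRCm38.p6, which is mm10), after 111 with a start below 3000000 (500000 on Y) were left out as unplaced. The table gives no strand, so a gene's end can be its start or its finish. A further 77 desert CHD7 regions with an input peak were left out.

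Named were the 10 desert regions of highest mean CHD7 fold, the 10 of highest mean H3K27ac fold, the 10 deserts with most regions and up to 4 genes of each list by number of regions. Some items that this rule names are not reported here. Non-coding genes and the regions, promoters and miRNAs named with them were chosen after their values were seen. The 13 gene lists (466 genes, 465 in the table) and the members were chosen with earlier results of these data known. Shares carry 95% exact (Clopper-Pearson) binomial intervals, which cover counting of regions and not sampling of reads, since library depth is unknown. The only tests were a two-sided exact permutation over libraries and an exact sign-flip over the CHD7 libraries as pairs. The rule was tested on simulated peaks. Distance from the nearest gene, the gene set, q-value, overlap, input peaks and each replicate were varied. Python 3.11.15, pandas 2.3.3, numpy 2.4.6, scipy 1.17.1 and matplotlib 3.10.9 were used.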

Additional observations from a re-analysis of the deposited data

How the results depend on the processing

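The number of desert regions, of occupied deserts and the acetylated share were 1335, 530 and 21.8%. They were 2038, 870 and 26.3% with a limit of 50 kb, and 558, 236 and 15.8% with 250 kb. They were 156, 113 and 16.7% with deserts ended by all annotated genes. With peaks of −log10 q of at least 5 they were 541, 324 and 14.4%, and with at least 10 they were 133, 111 and 11.3%. The q-value limit was applied to CHD7, H3K27ac and input peaks alike, so weaker H3K27ac peaks were dropped too. The acetylated share of the other intergenic CHD7 regions was 40.8 and 40.7% under these 2 limits. Regions of either CHD7 library numbered 3061, with H3K27ac at 13.3%. With an H3K27ac peak of either library the share was 37.0%. Leaving out 1 library gave 1933 to 2552 desert peaks, 613 to 718 occupied deserts and shares of 14.8 to 29.6%. The desert minus nearer difference of -14.0 percentage points stayed between -24.2 and -10.4 under every alternative in which it was computed, and between -15.0 and -13.1 without 1 library; it was not computed for the 2 alternatives that change how the CHD7 libraries are joined, since it uses single libraries. Paired by the replicate number of the CHD7 library (replicate block), it was again -14.0, with an exact sign-flip p = 0.5, the smallest that 2 pairs allow. Both shares of a library come from that library, so the pairing is real. With all annotated genes, the 10 most occupied deserts held 0 to 6 regions each within the same coding-gene limits, and with −log10 q of at least 5 they held 2 to 9. Distances from region centres and keeping genes of low coordinates, tried after seeing the data, moved no count by over 1.5 times.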

Other observations

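Deserts also held 213 H3K27ac regions without a CHD7 region, with a median of the mean H3K27ac fold of 3.09, against 3.23 for the 293 with CHD7. The 5 of highest fold lay between Ythdc2 and Kcnn2, Ywhaq and Gm46305, Pcmtd1 and Sntg1, Unc5d, a netrin receptor gene, and Dusp26, and Tmem38b and Zfp462. At the first, chr18:45015596-45016107, the H3K27ac folds were 5.72 and 5.31.

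The 77 desert CHD7 regions left out for an input peak had median CHD7 folds of 5.09 and 5.06, and 36 of them overlapped an H3K27ac region. Deserts held 147 of 451 and 164 of 512 peaks of the input libraries.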
